A study of Caenorhabditis elegans with 41 samples.

Results

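A set of 200 genes of Caenorhabditis elegans had mRNA that was high in embryos and in young adults and low in the larvae between them. The genes were chosen from the mRNA-seq of 1 strain, SP117. Among the 5899 genes whose mean FPKM reached at least 10 in both SP117 embryos (2 libraries) and SP117 young adults (3 libraries), the 200 with the largest log2 ratio of the lower of these means to the mean of SP117 L2-L3 larvae (4 libraries) were taken. FPKM is the number of sequenced fragments of a gene scaled by transcript length and library size, so it can be compared between genes. The files list 20390 genes in all. All SP117 values given here describe how the members were chosen and carry no test of a difference.

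Young adult hermaphrodites carry a proliferating and meiotic germ line and a row of growing oocytes, while larvae at the L2 and L3 stages have few germ cells and no oocytes. Oocytes are loaded with mRNA that is translated after fertilization, before the embryo transcribes its own genome, and much of this maternal mRNA is controlled by RNA-binding proteins and partitioned into P granules, the germline granules of the early embryo. The germ line of C. elegans is also known for keeping the X chromosome largely silent through much of meiosis, with expression of X genes resuming in oocytes.

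The study asked how chromosomal duplications change mRNA levels, and its mRNA-seq of 5 strains is used here (23 libraries of whole worms or embryos). SP117 carries mnDp10, a piece of X attached to chromosome I, together with unc-3(e151) on X. Members were followed in strains that played no part in choosing them: TY1916 embryos (3 libraries; yDp11, a piece of X attached to IV, with lon-2(e678) and unc-9(e101) on X), VC100 embryos (3 libraries; the X deletion gkDf2 with unc-112(r367) on V), BC4289 L2-L3 larvae (2 libraries) and BC4289 young adults (3 libraries; both with sDp10, a piece of IV attached to X). The study names SP117 and TY1916 among the strains whose mixed-stage embryos were released by bleaching, and does not name VC100 there. No untreated N2 libraries are used here. A further strain, OP37, carries the integrated fosmid wgIs37 with a tagged pha-4 and unc-119(+), and its 3 libraries are labelled embryos. No strain with the same genotype was used at all 3 stages outside SP117, so stage and strain cannot be told apart in comparisons of BC4289 with the embryos. The labels do not say whether replicates were separate cultures, and p-values then measure only the spread between these libraries.

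The depth of the libraries, read from how finely their low FPKM values are spaced, ran from 11.5% to 100% of the deepest library. The OP37 libraries stood with the larvae rather than with the embryos they are labelled as. The median FPKM of the members was 1.49, 1.79 and 0.933 in them, against 21.8 to 85.5 in the 8 other embryo libraries. The other genes that reached both minimums of the rule had medians of 21.5 to 33.9 in OP37, against 44.9 to 53.1 in those 8. Of the 200 members, 199 were below all 8 in all 3 OP37 libraries. The same share over all genes was not counted, and 2 of the 8 are the SP117 embryos that helped choose the members. The exception was Y17D7B.10, described below. OP37 entered no test, because its label and the name of its deposited data, which gives L3, differ in stage. VC100 replicate 1 and TY1916 replicate 1 also stood apart in their groups, in opposite directions: the first held the highest VC100 value for 171 members and the second the lowest TY1916 value for 198. These counts were not made over all genes. The other genes that reached both minimums had a median FPKM of 53.1 in VC100 replicate 1, against 51.5 and 52.7 in replicates 2 and 3. In TY1916 replicate 1 it was 44.9, against 46.4 and 49.7.

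By library, the median FPKM of the members was 44.98 and 62.3 in SP117 embryos, 1.58, 1.35, 2.18 and 1.35 in SP117 L2-L3 larvae, and 58.2, 60.2 and 62.5 in SP117 young adults. The same medians were 21.8, 35.4 and 47.1 in TY1916 embryos and 85.5, 65.7 and 65.2 in VC100 embryos. In BC4289 they were 2.07 and 1.64 in L2-L3 larvae and 54.6, 59.8 and 47.97 in young adults. Every embryo or young adult median, OP37 aside, was therefore at least 21.8, and no larval one was above 2.18. In SP117 the larval mean was under 1 FPKM for 79 members, and 4 members were listed at 0 in all 4 larval libraries.

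**Figure D1:**
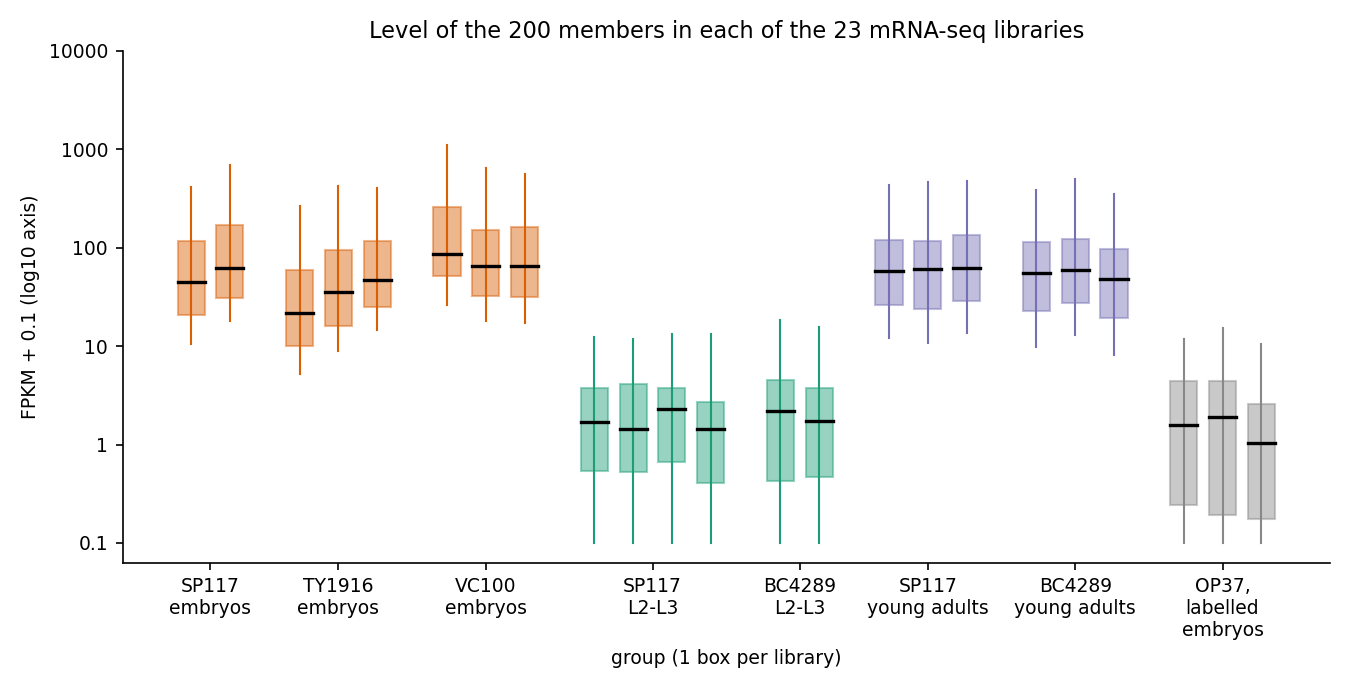
FPKM of the 200 members in each of the 23 libraries, on a log10 axis after adding 0.1. Boxes span the quartiles, black bars mark the medians and lines run from the 5th to the 95th percentile; the larval and OP37 medians lie between 0.933 and 2.18 and all others between 21.8 and 85.5.

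Between SP117 young adults and SP117 embryos the members were balanced. The young adult mean was higher for 98 and the embryo mean for 102, and 124 members were within 2-fold. The embryo mean was over 4-fold above that of young adults for 14 members and the young adult mean over 4-fold above that of embryos for 9. The rule's log2 ratio ran from 3.18 to 12.4 with a median of 4.69, against a median of 0.40 over all 5899 genes. Just inside the limit stood Y48G1BL.6, F56C9.3 and T28A8.3, with log2 ratios of 3.21, 3.20 and 3.18. Just outside it stood glp-1, the Notch receptor that keeps germline stem cells dividing, zim-2, which encodes a zinc finger protein of meiotic pairing centres, and skr-10, a relative of the ubiquitin ligase subunit Skp1, with 3.18, 3.17 and 3.17.

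The same pattern held in the strains that did not choose the members. In BC4289 young adults 197 of the 200 members were higher than in BC4289 L2-L3 larvae and none was lower, with a median log2 ratio of 5.11 (limma on log2(FPKM + 0.1), Benjamini-Hochberg adjusted p under 0.05 over 14331 genes). No member was lower at an unadjusted p under 0.05 either. Of all genes tested, 31% were called higher and 34.3% lower in this comparison, with a median log2 ratio of -0.18. The BC4289 L2-L3 larvae were in turn below TY1916 embryos for 198 members, with a median log2 ratio of -4.51, where 41.3% of all genes were called lower. They were below VC100 embryos for 198 members too, with a median log2 ratio of -5.77, where 40.6% of all genes were called lower. In neither was any member higher, adjusted or at an unadjusted p under 0.05, while 18.2% and 27.6% of all genes were called higher in L2-L3 larvae than in TY1916 and in VC100 embryos. All 3 comparisons were past the threshold for 197 members. These are bulk libraries, in which fewer cells of a type and less RNA per cell cannot be told apart, and the larvae serve in all 3 comparisons.

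In BC4289 L2-L3 larvae 11 members were listed at 0 in both libraries, so their ratios rest on the added 0.1, and the median log2 ratio of the other 189 was 5.02. Applied to the 11 libraries of the other strains, an alternative added after seeing the data, the same rule chose 200 genes of which 168 were members (84% of either list). The remaining 32 members included 10 that missed a level minimum in those strains. In young adults all 200 members were within 2-fold between SP117 and BC4289, with a median log2 ratio of 0.13, and in L2-L3 larvae 178 were. These counts use the SP117 means of the rule and are a description, and the share of other genes within 2-fold was not counted. They include Y17D7B.10 and Y67H2A.10, whose means join libraries that differed widely, as given below.

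**Figure D2:**
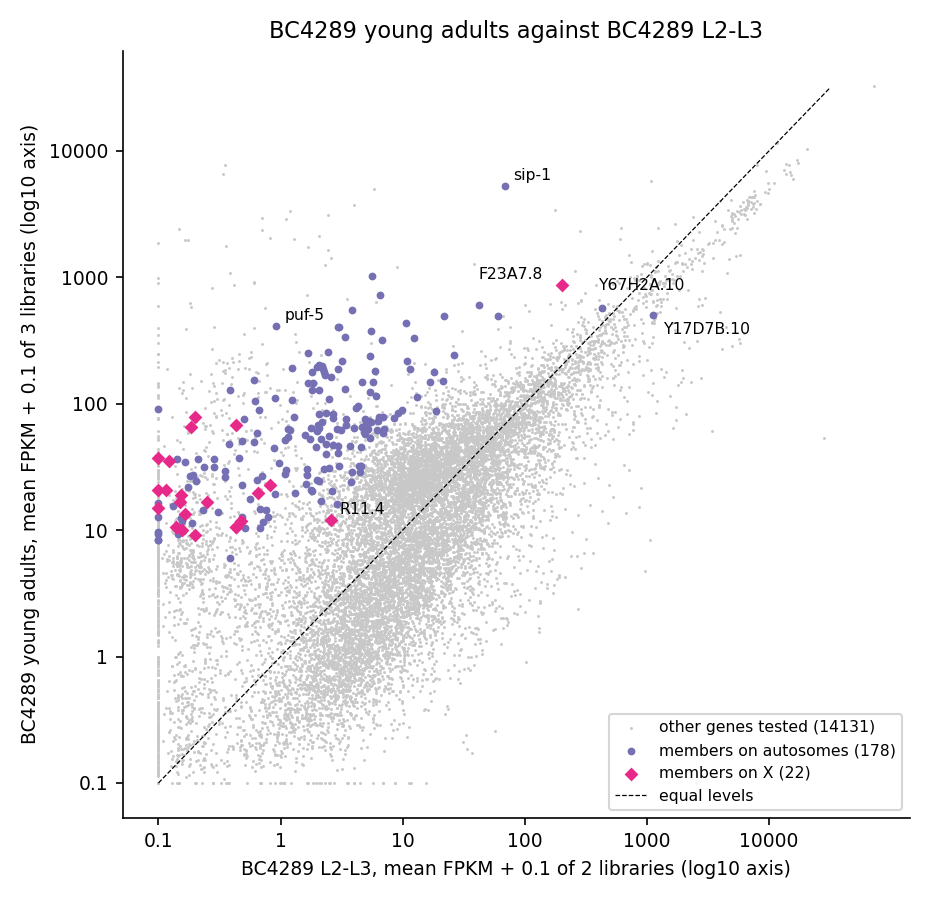
Mean FPKM + 0.1 in BC4289 young adults (3 libraries, vertical) against BC4289 L2-L3 larvae (2 libraries, horizontal) on log10 axes for the 14331 genes tested. Autosomal members are circles and X members diamonds; 197 members were called higher in young adults, and Y17D7B.10 is the member under the dashed line of equal levels.

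The 3 members not called higher in BC4289 young adults were Y17D7B.10, Y67H2A.10 and F23A7.8, and each swung between libraries of 1 group. Y17D7B.10 (chromosome V, 18783879 to 18784783 in WS220), which ranked first under the rule, was listed at 0 in all 4 SP117 L2-L3 libraries, but at 1100.4 and 1141 FPKM in BC4289 L2-L3 larvae. It was also listed at 0 in 1 of the 3 libraries of SP117 young adults, BC4289 young adults and VC100 embryos, with between 697 and 4422 FPKM in the other 2 of each. Its rank would have been 5061 under the rule in the other strains. The gene was thus either listed at 0 or strongly expressed in each of these libraries.

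Y67H2A.10, on chromosome IV, had 14190.0 FPKM in VC100 replicate 1 and 259 and 217 in the others. It had 838 and 15.1 FPKM in BC4289 L2-L3 larvae, and 66.7, 1573 and 65.1 in BC4289 young adults. Single libraries thus held nearly all of its signal, including the 2922 FPKM of SP117 young adult replicate 3, against 61.3 and 68.3 in the others. F23A7.8, which spans only 228 bases on X, had 16131 FPKM in VC100 replicate 1 and 1895 and 1593 in the others. In BC4289 young adults it had 1032, 1302 and 248 FPKM, against 215 and 188 in BC4289 L2-L3 larvae, so the groups did not overlap but the difference missed the threshold (log2 ratio 1.78 ± 0.98 (SE), adjusted p = 0.131). No role is given here for these 3 genes. Without them the members held 2.21% ± 0.277 of all TPM in BC4289 young adults (SD, n = 3), against 0.0470% ± 0.00689 in BC4289 L2-L3 larvae (SD, n = 2).

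By kind, 195 members were annotated as protein-coding and 3 as pseudogenes, and 2 had no annotation in the name table. Several small families had many members: all 4 meg genes, both oma genes, 3 of the 4 mex genes, 3 of the 4 cyb cyclin genes listed and 5 of the 9 puf genes listed. Of the rgs family 3 of 12 listed genes were members, out of 4 at the level minimums, and of the C-type lectin-like clec family 3 of 254, out of 10 at the level minimums. Of rgs-8.1 and rgs-8.2, 2 neighbouring X genes, the values were within 0.454% of each other in all 14 libraries where either reached 1 FPKM, so their reads may not be told apart, and cyb-2.1 with cyb-2.2, puf-3 with puf-11 and gpd-1 with gpd-4 are further close copies. Another listed gene overlapped 42 members (21%), and the library protocol was stranded.

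Maternal RNA-binding proteins and translational regulators were the list with most members, 16 of the 25 that reached both level minimums, out of 30. The lists used here were drawn up with earlier results of these data known, and their counts are descriptions. pos-1 (chromosome V, 8414064 to 8415235), a CCCH zinc finger RNA-binding protein that sets posterior fates in the early embryo, had 240.4, 389 and 550.0 FPKM in TY1916 embryos and 1275, 772 and 783 in VC100 embryos. It had 4.57 and 2.93 FPKM in BC4289 L2-L3 larvae and 530.1, 644 and 487 in BC4289 young adults. All larval values were far under the lowest embryo or adult value, and the young adult to larva ratio was 7.19 on the log2 scale (± 0.35 SE, adjusted p = 6.18e-07). nos-2, a Nanos relative needed in primordial germ cells, had 129, 153 and 103 FPKM in BC4289 young adults, against 0.21 and 0.364 in BC4289 L2-L3 larvae (log2 ratio 8.38 ± 0.39 (SE), adjusted p = 5.56e-07).

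mex-6, whose zinc finger protein acts with MEX-5 in the anterior of the zygote, had 184, 215 and 168 FPKM in BC4289 young adults, against 2.17 and 2.08 in the larvae (log2 ratio 6.40 ± 0.26 (SE), adjusted p = 2.79e-07). For oma-1, which acts redundantly with oma-2 in oocyte maturation, the young adult values were 185, 205 and 178 FPKM and the larval ones 3.08 and 2.62 (log2 ratio 6.01 ± 0.28 (SE), adjusted p = 5.83e-07). In BC4289 young adults mex-6 and oma-1 thus lay between 168 and 215 FPKM, against at most 3.08 in the larvae. puf-5 (chromosome II, 8575489 to 8577682), a Pumilio-family translational repressor that acts in late oogenesis, was the member with the largest ratio among those with signal in the larvae. It had 381, 487 and 366 FPKM in BC4289 young adults, against 1.00 and 0.639 in BC4289 L2-L3 larvae (log2 ratio 8.82 ± 0.28 (SE), adjusted p = 1.98e-07). For cpb-3, of the CPEB family, the log2 ratio was 3.63. The smallest drops of larvae below TY1916 embryos among called members included that of the syntaxin gene syx-4, at -1.87. Of the 14 genes of the list that were not members, 10 were called higher in young adults, with a median log2 ratio of 1.77.

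P granule genes gave 5 members, the meg genes and pie-1, out of 15 at the level minimums. The meg genes encode intrinsically disordered proteins of embryonic P granules. meg-1 (X, 13926964 to 13929563) had 63.4, 73.6 and 58.9 FPKM in BC4289 young adults, against 0.0323 and 0.134 in BC4289 L2-L3 larvae (log2 ratio 8.53 ± 0.34 (SE), adjusted p = 2.53e-07). Its neighbour meg-2 was lower at 10.3, 11.4 and 9.49 FPKM in young adults, against 0.076 and 0 in larvae (log2 ratio 6.30 ± 0.36 (SE), adjusted p = 1.05e-06). In meg-4 the log2 ratio was 6.40 and in meg-3 4.78, so all 4 moved the same way and meg-3 least. The 14 tested P granule genes outside the set were called higher in 13 cases, but with a median log2 ratio of 2.62.

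Cell cycle genes entered through the B-type cyclins. cyb-3 had 1008, 1683 and 1523 FPKM in TY1916 embryos, 2632, 2542 and 2376 in VC100 embryos, 46.4 and 37.7 in BC4289 L2-L3 larvae and 570.3, 721 and 524 in BC4289 young adults. It was thus above the adult level in every embryo library, and well above 0 even in larvae (log2 ratio 3.84 ± 0.23 (SE), adjusted p = 1.54e-06 for young adults over larvae). For cyb-2.1 the young adult values were 129.9, 137 and 121 FPKM, against 2.36 and 1.56 in larvae, and cyb-2.2 had a log2 ratio of 6.44. cdc-25.3, of the CDC25 phosphatases that activate cyclin-dependent kinases, had 27.2, 33.7 and 20.5 FPKM in BC4289 young adults, against 0.0893 and 0.0926 in larvae (log2 ratio 7.13 ± 0.36 (SE), adjusted p = 7.37e-07). Other cyclins and mitotic kinases were called higher in 19 of 25 cases and lower in 1, with a median log2 ratio of 2.23.

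Meiotic and division machinery was present among the members but near the limit of the rule. Meiotic chromosome genes gave 4 of 27 at the level minimums: lab-1, of the long arms of bivalents, dsb-2, which promotes double-strand breaks, the axis protein gene htp-2, and zhp-3, whose RING finger protein marks crossovers. Their young adult to larva log2 ratios were 5.12, 2.68, 4.10 and 2.81, and all were called. Centrosome, kinetochore and spindle genes gave 3 of 48: mei-2, a katanin subunit of the oocyte spindle, hcp-1, which encodes a CENP-F relative, and kbp-4, an outer kinetochore subunit, at 5.41, 3.19 and 2.23. DNA replication gave 2 of 39, the dUTPase gene dut-1 at 3.14 and the geminin gene gmn-1 at 2.81. Of the polarity and cortex list, nos-2, let-99 and ect-2 were members out of 20, and of the list on turnover of maternal proteins only zif-1, the substrate adaptor that has maternal zinc finger proteins degraded, out of 20. Eggshell genes gave egg-3 and gna-2, of 8 at the level minimums. gna-2, which makes a precursor of eggshell chitin, had 71.2, 68.1 and 53.6 FPKM in BC4289 young adults, against 1.89 and 1.49 in L2-L3 larvae (log2 ratio 5.17 ± 0.39 (SE), adjusted p = 4.64e-06).

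No member came from the germline small RNA list (14 at the level minimums) or from the list of histone methylation and germline chromatin (25). The first was nevertheless called higher in BC4289 young adults for all 19 genes tested, with a median log2 ratio of 2.05, and the second for 25 of 28, lower for 2, with 1.33. Markers of sperm, intestine, muscle, hypodermis, neurons and pharynx held no member either. In BC4289 young adults against L2-L3 larvae, muscle markers were lower for 7 of 10, nervous system markers for 11 of 12 and pharynx markers for 9 of 9, with none higher. Hypodermis markers were higher for 4 and lower for 6 of 11. Intestine and yolk markers were higher for 6 and lower for 4 of 11, and summed to between 18311 and 25605 TPM in BC4289 young adults, against 1320 and 1449 TPM in BC4289 L2-L3 larvae. Spermatogenic markers were higher for 29 of 29. Of the 9 general germ line markers at the level minimums, oma-1, oma-2 and gld-1 were members. The spermatogenic markers summed to between 1886 and 5455 TPM in BC4289 young adults, against 3.53 and 10.3 in BC4289 L2-L3 larvae. In TY1916 and VC100 embryos their sums were between 7.04 and 67.4 TPM, with msp-63 listed at 0 in both groups. In the embryos, where the members were high, the sperm markers were thus near 0. The part of these tissues in the young adult to larva ratios of the members was not tested.

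**Figure D3:**
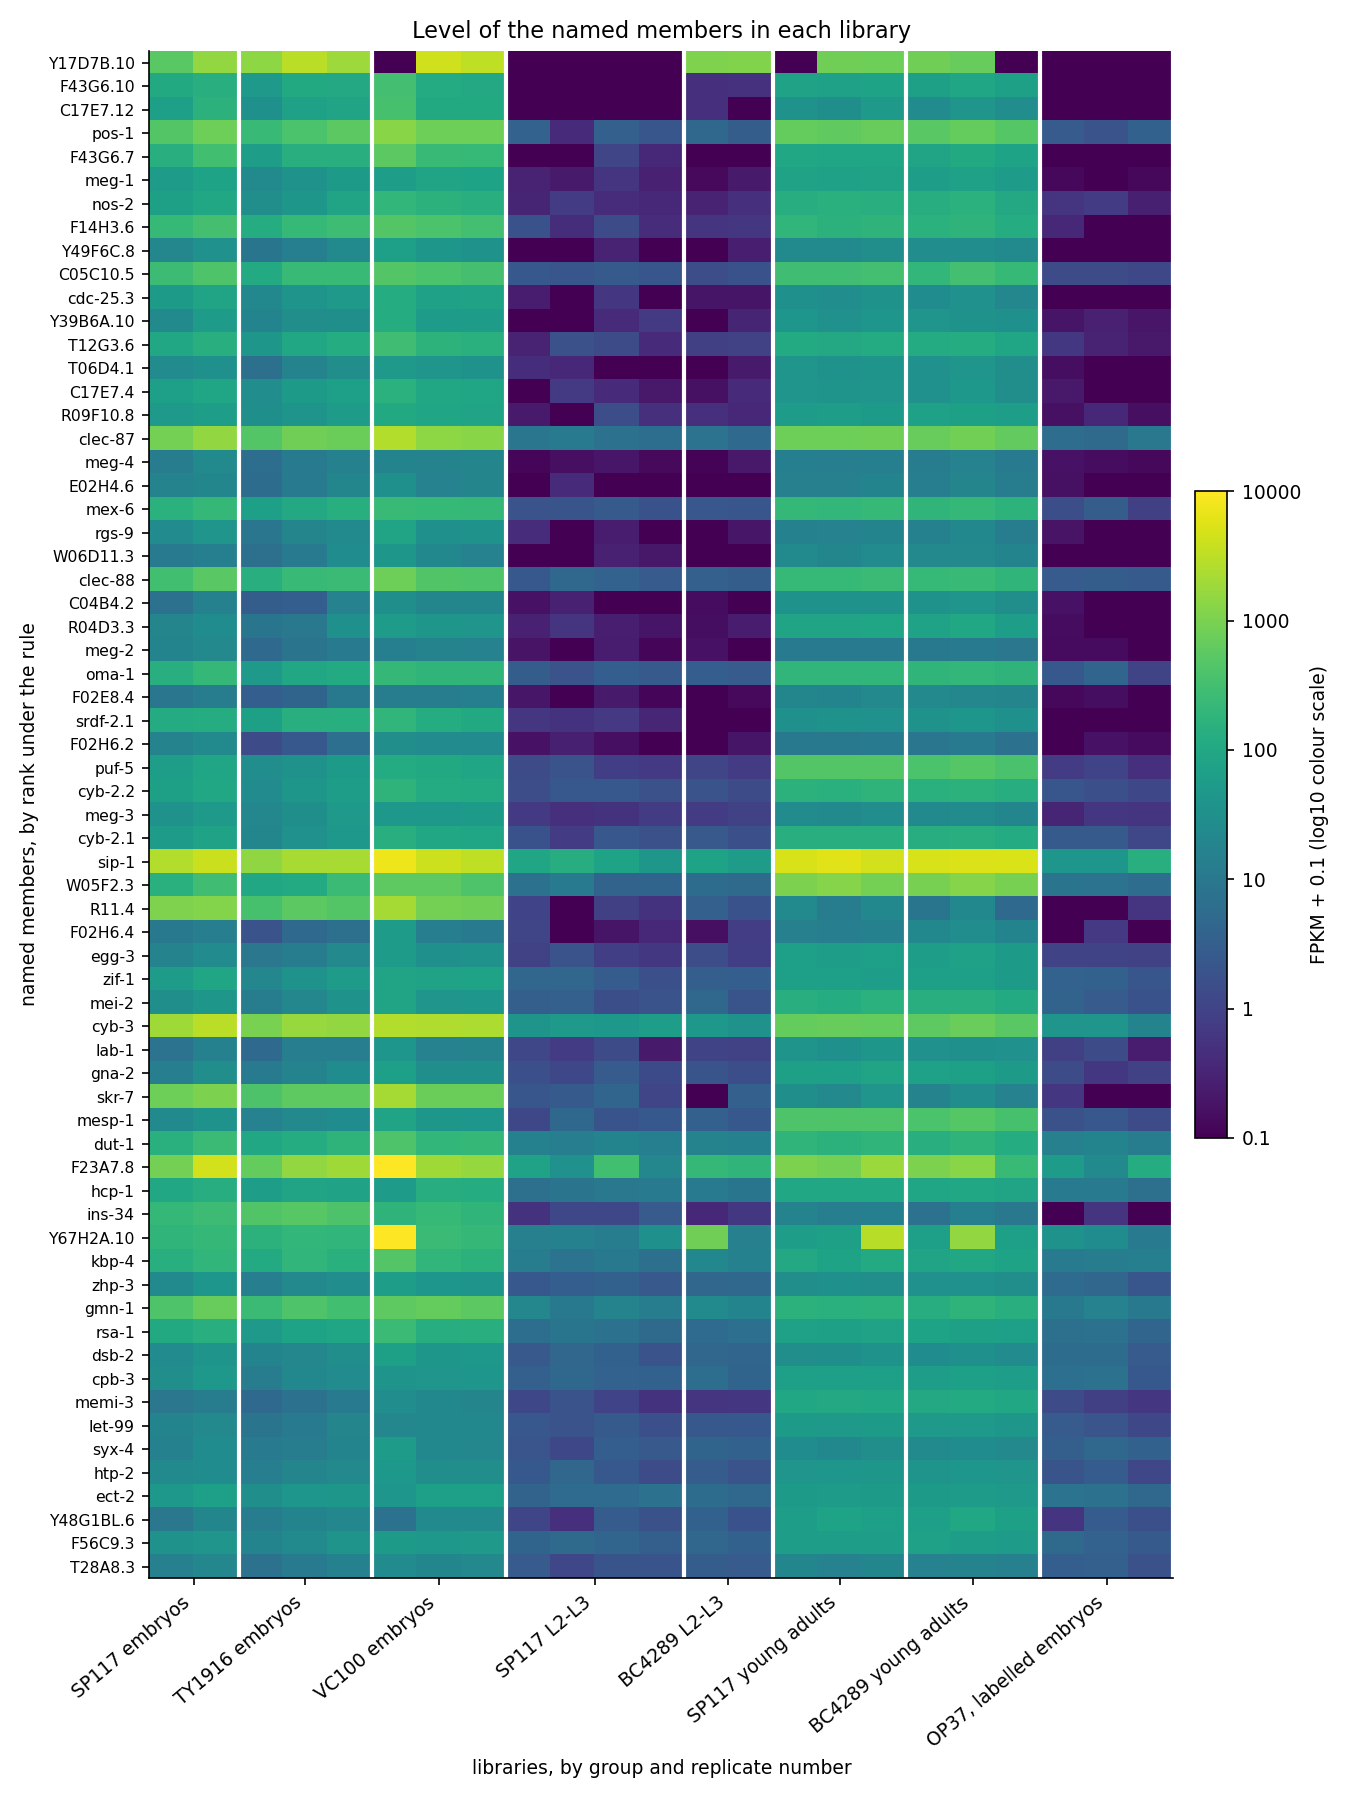
FPKM + 0.1 of 65 members named by the rule in each of the 23 libraries, on a log10 colour scale, in order of rank from the top; white lines divide groups and levels past the top of the scale take its last colour. The larval and OP37 columns are dark in nearly every row, and Y17D7B.10, Y67H2A.10 and F23A7.8 change between libraries of 1 group.

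Much of the top of the ranking was held by genes known only by their sequence names, for which no role is given here. F43G6.7 (chromosome II, 11810724 to 11811612) was listed at 0 in both BC4289 L2-L3 libraries and had 81.8, 109 and 79.1 FPKM in BC4289 young adults. Its neighbour F43G6.10 had 69.6, 85.3 and 69.9 FPKM in the young adults, against 0.396 and 0.411 in the larvae (log2 ratio 7.21 ± 0.46 (SE), adjusted p = 1.84e-06). Both were thus at or near 0 in the larvae. C05C10.5 was the strongest of these genes, with 206, 327 and 227 FPKM in BC4289 young adults, against 1.44 and 1.71 in L2-L3 larvae (log2 ratio 7.22 ± 0.32 (SE), adjusted p = 4.50e-07). T12G3.6, Y39B6A.10, T06D4.1 and Y49F6C.8 were called higher as well, with log2 ratios of 6.93, 7.67, 7.83 and 7.37, and the last 3 of these were listed at 0 in 1 of the 2 larval libraries.

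The most abundant members were not all regulators. sip-1 (chromosome III, 10506007 to 10506703), a small heat shock protein of oocytes and embryos, had 5075, 5461 and 5264 FPKM in BC4289 young adults, against 80.98 and 55.6 in BC4289 L2-L3 larvae (log2 ratio 6.29 ± 0.33 (SE), adjusted p = 8.05e-07). It had 1448, 2249 and 2209.8 FPKM in TY1916 embryos and 7548, 4252 and 3382 in VC100 embryos. W05F2.3 was at 935, 1211 and 940.3 FPKM in the young adults, against 5.74 and 5.34 in the larvae. The C-type lectin-like gene clec-87 was somewhat lower, at 691, 872 and 618 FPKM in young adults, against 7.87 and 4.94 in the larvae (log2 ratio 6.83 ± 0.36 (SE), adjusted p = 7.57e-07).

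Between young adults and embryos, the share of members called higher was near that of all genes, and the share called lower was smaller. Against the mean of TY1916 and VC100 embryos, BC4289 young adults were higher for 55 members (27.5%), where 26.4% of all genes were called higher, and lower for 49 (24.5%), where 44.8% were called lower. The median log2 ratio was 0.01. The balance rests on which embryos are used: against TY1916 alone 42.5% of members were higher and 12.5% lower, and against VC100 alone 10% and 38.5%. Centring each library on its median also moved it, to 41.5% higher and 14.5% lower.

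Of the members higher in young adults, mesp-1 had one of the largest ratios. This gene, named for the meiotic spindle, had 382, 474 and 347 FPKM in BC4289 young adults, against 16.3, 22.7 and 27.2 in TY1916 embryos and 81.5, 44.6 and 41.8 in VC100 embryos (log2 ratio 3.55 ± 0.25 (SE), adjusted p = 6.19e-07). memi-3, of the family that governs the switch from meiosis to mitosis in the zygote, had between 96.8 and 115 FPKM in young adults, against at most 28.8 in any of the 6 embryo libraries (log2 ratio 3.004 ± 0.25 (SE), adjusted p = 1.73e-06). puf-5 was also higher in young adults (log2 ratio 2.70 ± 0.22 (SE), adjusted p = 1.33e-06). Of the 9 members over 4-fold higher in young adults than embryos in SP117 (puf-3, puf-5, puf-11, mesp-1, memi-3, W05F2.3, C01G8.1, Y48G1BL.6 and Y67H2A.10), 8 were called higher in this comparison of other strains, the exception being Y67H2A.10. Among members called lower in young adults, the smallest ratios included those of clec-88 and rsa-1, which encodes a regulatory subunit of the phosphatase PP2A, at -0.61 and -0.60.

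The embryo end held a different group, which included 3 Skp1-related genes, an insulin-like peptide gene and several transcription factor genes. All 14 members over 4-fold higher in embryos in SP117 were lower in BC4289 young adults than in the embryos of the other strains, with a median log2 ratio of -3.29. They were nevertheless all higher in BC4289 young adults than in BC4289 L2-L3 larvae. R11.4 (X, 16210247 to 16210578) had 8.83, 21.7 and 4.93 FPKM in BC4289 young adults, against 345, 555 and 459 in TY1916 embryos and 2083, 891 and 834 in VC100 embryos (log2 ratio -6.17 ± 0.45 (SE), adjusted p = 7.36e-07). skr-7 (chromosome V, 4422391 to 4423051) had 16.9, 28.4 and 16.2 FPKM in young adults, against 399, 585 and 575 in TY1916 embryos and 2099, 751 and 756 in VC100 embryos (log2 ratio -5.21 ± 0.86 (SE), adjusted p = 2.85e-04). Its close neighbour skr-14 was a member as well. ins-34 (chromosome IV, 14106558 to 14107681), an insulin-like peptide gene, had 7.08, 14.2 and 9.89 FPKM in young adults, against between 182 and 510.4 in the 6 embryo libraries (log2 ratio -4.89 ± 0.24 (SE), adjusted p = 7.21e-08). For these genes the adult level was close to the minimum of the rule and the embryo level far above it.

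Embryos of the 2 strains differed for most members. TY1916 embryos were lower than VC100 embryos for 159 of 200 members and higher for 1, with a median log2 ratio of -1.20, where 15.2% of all genes were called lower and 21.6% higher and the median of all genes was 0.17. Genes at or above both level minimums that were not members had a median of -0.28. The difference rests in part on single libraries. Without TY1916 replicate 1 it was called for 67 members, 33.5%, with a median of -0.88, where 4.89% of all genes were called lower. Without replicate 1 of both strains, an alternative added after seeing the data, it was called for 76 (38%), with a median of -0.67. In the last fit 193 members still had a negative ratio and 9.12% of all genes were called lower.

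The maternal regulators shared in this. pos-1 was lower in TY1916 than in VC100 embryos (log2 ratio -1.301 ± 0.31 (SE), adjusted p = 0.0122), as were nos-2 at 29.2, 44.9 and 81.9 FPKM in TY1916 embryos, against 203, 161 and 136 in VC100 embryos (log2 ratio -1.79 ± 0.35 (SE), adjusted p = 0.00515), and puf-5 (log2 ratio -1.49 ± 0.25 (SE), adjusted p = 0.00289). In the list of 30 maternal regulators 21 were lower and none higher. Among the meg genes meg-1 and meg-2 were called lower, at -1.07 and -1.03 on the log2 scale, while meg-3 and meg-4, at -0.62 and -0.78, missed the threshold.

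Other transcripts moved the opposite way between these embryos. Of the body wall muscle markers 9 of 10 were higher in TY1916, and the list summed to between 2989 and 4190 TPM in TY1916 embryos, against 1050.3 to 1263 TPM in VC100 embryos. Nervous system markers were higher for 9 of 12, at 746 to 993 TPM in TY1916 against 483 to 619 TPM in VC100, and pharynx markers for 4 of 9, at 588 to 821 against 248 to 362 TPM. General germ line markers, 3 of them members, were lower for 9 of 12, at 236 to 536 TPM in TY1916 against 665 to 764 TPM in VC100. No marker of these 4 lists was listed at 0 throughout either group. The part of these tissues in the difference of the members was not tested. The duplication, the deletion, the mix of embryo stages and the other differences between the groups cannot be told apart.

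**Figure D4:**
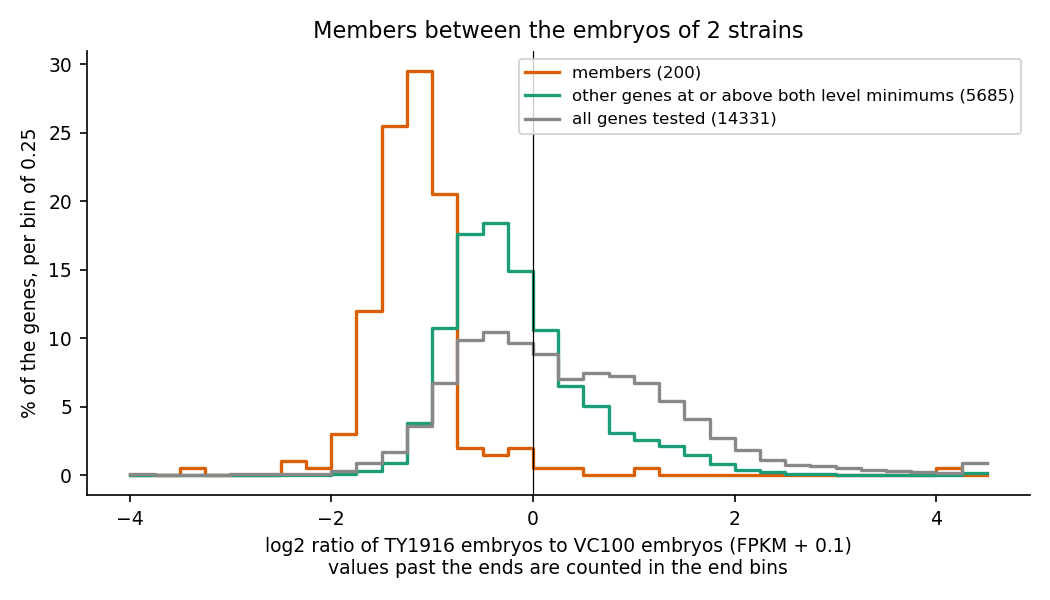
Share of genes by log2 ratio of TY1916 embryos to VC100 embryos (3 libraries each), in bins of 0.25, for the 200 members, the other genes at or above both level minimums and all 14331 genes tested. The members centre on -1.20, the other genes at those levels on -0.28 and all genes on 0.17.

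The 2 lowest members and the only one called higher lie close together on chromosome IV. F02H6.2 (14196423 to 14198799) had 1.35, 2.25 and 6.50 FPKM in TY1916 embryos, against 29.0, 25.7 and 26.04 in VC100 embryos (log2 ratio -3.26 ± 0.49 (SE), adjusted p = 0.00176). F02H6.4 had 1.79, 5.05 and 6.76 FPKM in TY1916, against 56.5, 13.6 and 11.2 in VC100 (log2 ratio -2.34 ± 0.74 (SE), adjusted p = 0.0329). Both were near the VC100 level in SP117 embryos, at 16.98 and 23.2 FPKM for F02H6.2 and 10.5 and 13.6 for F02H6.4. The gene between them, F02H6.3, picked after its values were seen, missed the young adult minimum with 9.42 FPKM in SP117 and was lower still, at 0.836, 1.55 and 3.52 FPKM in TY1916, against 32.8, 19.7 and 20.2 in VC100 (log2 ratio -3.74 ± 0.51 (SE), adjusted p = 0.00107). The 3 genes span 22.9 kb. ins-34 lies 88.7 kb before them and was the member called higher, with 442, 510.4 and 405 FPKM in TY1916, against 182, 227 and 185 in VC100 (log2 ratio 1.19 ± 0.28 (SE), adjusted p = 0.0106). A nearby gene on either side was not called: R05A10.2, between ins-34 and F02H6.2, had a log2 ratio of 1.19 (adjusted p = 0.0758) and sqrd-1, just after F02H6.4, one of 0.36 (adjusted p = 0.246). Both were picked after their values were seen. The study describes TY1916 as also changed on the right arm of chromosome IV and at the left end of V, with increased DNA coverage in both. Copy number at these genes was not analysed here.

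The X chromosome held 22 members, 11% of the set, against 8.44% of the 5899 genes at the level minimums and 13.8% of all genes listed. The share was uneven along the ranking. X genes made up 13 of the first 50 members (26%), 6 of the next 50 (12%) and 3 of the last 100 (3%). Chromosomes II and V also led the ranking, so that II, V and X together gave 42 of the first 50 members (84%) and 36% of the last 100, against 40.9% of the 5899 genes. Chromosomes I and III gave 4 of the first 50 and 43 of the last 100, against 42.1%. With a level minimum of 20 FPKM in place of 10 the X share of the 200 was 3.5%, and with 100 members 19%.

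**Figure D5:**
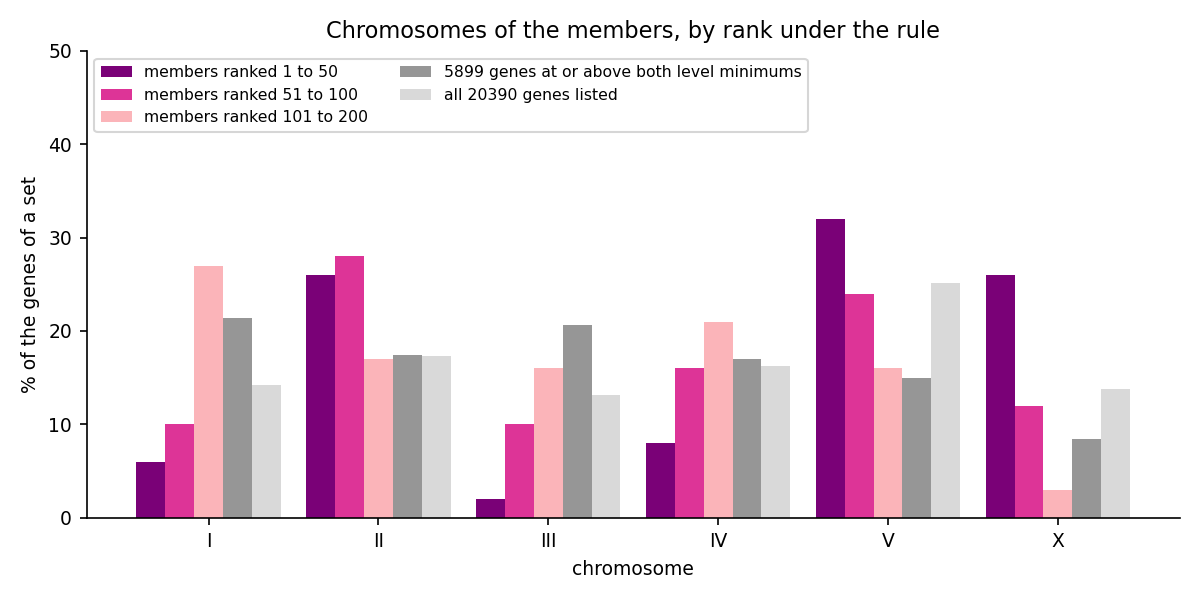
Share of each set of genes on each chromosome, for the first 50, the next 50 and the last 100 members by rank, the 5899 genes at or above both level minimums and all 20390 genes listed. On X the bars of the members step down from 26% to 12% and 3%.

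The X members were weakly expressed. The smaller of the embryo and young adult means in SP117 was under 20 FPKM for 15 of the 22 X members (68.2%), against 35 of the 178 autosomal ones (19.7%), and its median was 16.2 FPKM on X and 38.4 on autosomes. Their larval median was also lower, at 0.262 FPKM on X, against 1.91 on autosomes. Between 10 and 20 FPKM, X held 15 of 50 members (30%) and 15.8% of all genes in that band, while at 50 FPKM and above it held 3.85% of members and 5.01% of all genes.

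In BC4289, which has no X duplication in its label, 21 of the 22 X members were higher in young adults than in L2-L3 larvae, with a median log2 ratio of 6.38. X genes as a whole went the other way: of 2118 tested, 11.4% were higher and 57.2% lower, with a median of -1.14. Autosomal members were higher for 176 of 178, with a median of 5.04. R09F10.8 had 71.4, 70.0 and 61.6 FPKM in BC4289 young adults, against 0.38 and 0.277 in the larvae (log2 ratio 7.31 ± 0.26 (SE), adjusted p = 2.34e-07). srdf-2.1 was listed at 0 in both larval libraries and had 35.6, 43.1 and 32.4 FPKM in young adults. Weaker X members showed the same. W06D11.3 and E02H4.6 were also listed at 0 in both larval libraries, with 22.1, 22.0 and 18.1 FPKM and 13.6, 18.6 and 12.5 FPKM in young adults. For R04D3.3, C04B4.2, F02E8.4 and rgs-9, which encodes a regulator of G protein signalling, the log2 ratios were 8.62, 8.19, 7.48 and 6.84, on larval levels of at most 0.145 FPKM. SP117 carries an X duplication at every stage, and its part in the X share was not tested. In young adults the SP117 to BC4289 median log2 ratio was 0.13 for X members and 0.13 for autosomal ones. The X members lie between positions 1682946 and 16213527. They were not divided into those inside and outside the duplication, so this pooled median does not bear on its part. Under the rule in the other strains 17 of 200 genes (8.5%) were on X, all of them members.

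Some members came in neighbouring groups. How often other genes at the level minimums do so was not counted, so the groups are a description and no excess is shown. With at most 2 other genes between them, 47 members formed 22 runs, so the 200 genes occupied 175 loci, 16 of them on X, and 16 pairs were direct neighbours. On X these included meg-1 with meg-2, the 3 genes R04D3.2, R04D3.3 and R04D3.4, rgs-8.1 with rgs-8.2, C49F5.3 with C49F5.6, and R11.4 with F23A7.8. On V they were C17E7.4, C17E7.9 and C17E7.12 in 1 run and F14H3.4, F14H3.5 and F14H3.6 in another. On I gld-1, a translational repressor that acts in oogenesis, stood beside gna-2. The genes were compact: their median span was 1687 bases, against 2581 bases for the 5899 genes at the level minimums.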

How the data were processed

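The mRNA-seq libraries of 23 samples were used. The authors aligned reads to WS220 with HISAT2 2.2.1 and made gene tables with Cufflinks 2.2.1. The deposited FPKM values are scaled by transcript length and mapped fragments, and the deposited TPM values are the same values scaled to a common total per library. DNA-seq and N2 mRNA-seq were not used here, and read numbers were not used here either, so depth is relative (11.5% to 100% of the deepest library).

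Genes with a failed estimate (51) and mitochondrial genes (12) were left out. The 14331 genes that passed the filter on low values were fitted as log2(FPKM + 0.1) in 1 limma 3.58.1 model (R 4.3.3; trended eBayes) over the 11 libraries of TY1916 and VC100 embryos and BC4289 L2-L3 larvae and young adults, with Benjamini-Hochberg adjustment over all of them and a threshold of 0.05. All 200 members passed the filter. Fold changes are on the log2(value + 0.1) scale, which understates changes of low genes. Tables were handled with pandas 2.3.3. The fit was tested on simulated data. Names matched 19880 genes (97.5%). Members and gene lists were chosen with earlier results of these data known.

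The text names the 15 members with the highest ratio, those next to the limit, up to 10 X members, the extreme called members of each comparison, up to 4 members per list and the 5 most abundant; a further part, on protein identity, could not be applied. Other genes were named after their values were seen, and 1 member picked by the rule is not reported here. Alternatives were a pseudocount of 1, TPM, quantile and median centring, other level minimums and list sizes, each library left out, and a replicate block.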

Additional observations from a re-analysis of the deposited data

Results flagged for a closer look

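In groups of 4 to 10 libraries, the highest or lowest library was compared with the rest by its gap to the nearest value over the group's range. Of 68 values tested in this way, 66 were of named members and the rest were summaries over all members. In all 3 stood apart, and chance alone marks about 1 in 20 groups. SP117 L2-L3 larvae were the only group with 4 libraries, so all 68 values are of these larvae, which also served to choose the members, and the gaps are given as a description. Y49F6C.8 had 0.221 FPKM in replicate 3 and was listed at 0 in the other replicates. E02H4.6, on X, had 0.317 FPKM in replicate 2 and was listed at 0 in the others. With every other replicate at 0 the gap equals the whole range, so both genes were bound to be marked. Replicate 2 was also the shallowest library, at 11.5% of the deepest. Y67H2A.10 had 32.2 FPKM in replicate 4, against 12.6 to 15.8 FPKM in the others. In all 3 genes these values stayed below every SP117 embryo and SP117 young adult value.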

How the results depend on the processing

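The calls of young adults over larvae and of larvae under embryos kept their direction and their share of members in every alternative run. Their median log2 ratio moved with the scale and the size of the set. For BC4289 young adults over L2-L3 larvae it was 4.05 with a pseudocount of 1, 5.54 in TPM, 4.13 with a level minimum of 20, 6.42 with 100 members and 3.41 with 400. For L2-L3 larvae over TY1916 embryos it was -3.49, -5.10, -3.21, -6.46 and -2.88 under the same settings and -3.89 with median centring. Over VC100 embryos it was -4.63, -6.25, -4.40, -7.63 and -3.90, then -5.38 with quantile scaling, -5.35 with centring and -5.48 with the rule in TPM.

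For young adults over the mean of embryos, the median was 0.42 with quantile scaling and 0.47 with centring (41.5% higher, 14.5% lower). It was 0.56 against TY1916 alone (42.5% and 12.5%) and -0.52 against VC100 alone (10% and 38.5%). The median of all genes moved as well, from -0.38 to -0.036 with quantile scaling and 0.079 with centring. Single genes turned in this comparison: clec-88 to 0.040 and rsa-1 to 0.0059 against TY1916 alone, oma-1 to -0.036 against VC100 alone and sip-1 to -0.013 with quantile scaling. Between TY1916 and VC100 embryos the share called higher was 0% in the fit of all 23 libraries, with a level minimum of 20, with 100 members, with a pseudocount of 1 in the rule and without replicate 1 of both strains, and 0.25% with 400 members; without both replicates 1 the share called lower was 38% and the median -0.67. The X share was 3.5% with a level minimum of 20, 19% with 100 members and 7% with 400.

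Leaving out each library in turn gave 98% to 99% of members higher in young adults than larvae (median 5.01 to 5.26), 98% to 99% lower in larvae than TY1916 embryos (-4.83 to -4.17) and 99% to 99.5% lower than VC100 embryos (-5.83 to -5.43). Young adults over embryos gave 21.5% to 33.5% higher and 20% to 30% lower (median -0.14 to 0.13), TY1916 over VC100 gave 0.5% higher and 33.5% to 83% lower (-1.44 to -0.88; 33.5% without TY1916 replicate 1), and X gave 10% to 11%. Where this left 1 BC4289 larval library, it was assumed to vary like the other groups.

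Of 15 same-numbered pairs of libraries, 3 correlated above 0.1 in their deviations from the group means (-0.202 to 0.140). In groups this small such deviations are tied to each other, so a pairing by replicate number is not excluded. With the replicate as a block, 98.5% of members were higher in young adults than larvae (median 5.12), 99% were lower in larvae than in either embryo group, and 63.5% were lower in TY1916 than VC100 (-1.20). Scaling moved the share of higher among all calls, main against alternative: 47.5% against 63.5% in TPM for young adults over larvae, 30.6% against 51.7% with centring for larvae over TY1916, 40.5% against 51.5% for larvae over VC100, 37.1% against 51.7% for young adults over embryos, and 58.6% against 43.3% with quantile scaling for TY1916 over VC100, where the median of all genes was then -0.09. Levels at or near 0 in larvae limit how well the size of a ratio is known.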

Other observations

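Genes of the eggshell list that were not members had a larger median ratio than the 200 members. In BC4289 young adults all 16 tested were higher than in BC4289 L2-L3 larvae, with a median log2 ratio of 6.52, and over the whole list of 18 young adults were higher than embryos for 16 and lower for 1, with a median of 4.40. Most did not reach 10 FPKM in both SP117 embryos and SP117 young adults, as the list had 8 of 19 genes at both minimums. DNA replication genes were likewise higher in young adults than in L2-L3 larvae, 38 of 39, with a median of 2.06. Against embryos, none of the 39 was higher in young adults and 26 were lower, with a median of -0.70, where 44.8% of all genes were called lower.

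VC100 replicate 1 stood above replicates 2 and 3 most for short genes. Its median log2 ratio to their mean was 1.07 for the 32 members spanning under 1000 bases and 0.65 for the other 168, against 0.86 and 0.12 for the genes at the level minimums.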
